A study of Mus musculus with 16 samples.

Results

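The proteasome subunit genes are the genes of the Psma, Psmb, Psmc, Psmd and Psme series, and 41 of the 27928 genes in the table were followed here. They were chosen by symbol and by a mean of at least 10 normalized counts over the 8 RNA libraries, so their level was used to choose them and is given below as a description. Of 43 matching symbols, Psma8, a subunit of the testis, and Psmb11, a subunit of the thymus, fell under that level, with means of 2.68 and 2.04. The lowest gene kept, Psmb5, had a mean of 414, so that none of the 41 lay near the limit. All 41 were tested. They were described in follicular (FO) against marginal zone (MZ) B cells and between cKO and WT mice, and the 5 interferon-inducible genes Psmb8, Psmb9, Psmb10, Psme1 and Psme2 were set beside the 36 others.

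FO B cells (CD21lo CD23hi) and MZ B cells (CD21hi CD23lo) were sorted from spleens of young adult C57BL/6 mice, and 2 RNA libraries were made from each subset of WT and of cKO mice. The cKO mice carried Gtf2i fl/fl and a Cre allele that removes the floxed alleles in the B lineage. The WT mice were BL6 animals without Cre or floxed alleles, so a cKO to WT comparison also compares mice with and without the Cre allele. The labels do not say whether replicates came from separate mice, so a p-value measures the spread between these libraries, which may be technical. The 2 cKO FO libraries differed in the sex-linked transcripts given below, so their RNA was not from the same animals alone. In bulk RNA, fewer cells of a type and less RNA per cell cannot be told apart.

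The proteasome degrades proteins tagged with ubiquitin. Its barrel is built of outer alpha rings and inner beta rings, and 3 of the beta subunits, Psmb5, Psmb6 and Psmb7, cut peptide bonds. A regulatory particle of ATPases, a lid and ubiquitin receptors caps the barrel, unfolds the substrate and feeds it in. In lymphoid cells and under interferon, Psmb8, Psmb9 and Psmb10 replace Psmb5, Psmb6 and Psmb7 in newly built barrels, which are then called immunoproteasomes. Psme1 and Psme2 form an activator ring that opens the barrel. The peptides made are carried by Tap1 and Tap2 to MHC class I molecules.

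The libraries held between 21546552 and 25083552 reads on genes. In normalized counts (reads divided by a size factor for each library), Gtf2i, the targeted gene, had FO libraries at 2039.8 and 1992 (WT) and 1523 and 1531 (cKO) and MZ libraries at 2864 and 2471 (WT) and 1782 and 1889 (cKO). Across both subsets it was lower in cKO by a log2 difference of -0.47 ± 0.065 (SE; limma adjusted p = 0.0348), which is under 1.5-fold. These are counts over the whole gene, and reads on its deleted part were not counted apart. The paper reports the B cell deletion at the DNA, mRNA and protein level. The gated markers followed the labels. Cr2, which encodes CD21, was between 22942 and 26803 in FO and between 86953 and 97087 in MZ libraries, and Fcer2a, which encodes CD23, was at least 24802 in FO and at most 6708 in MZ libraries. The summed markers of T cells (6 genes) stayed between 26.9 and 75.2, those of NK cells (4 genes) between 43.3 and 259 and those of macrophages and monocytes (6 genes) between 607 and 1649, against at least 156421 for the B cell list (5 genes). The dendritic cell list (5 genes) was between 189 and 257 in FO and between 306 and 506 in MZ libraries, and so moved with the subset. Its part in the FO to MZ differences below was not tested.

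Some values move with genotype or mark single libraries. Xist, the RNA of the inactive X chromosome, was at least 25929.5 in WT libraries and 14748 in cKO FO library 1, and the remaining cKO libraries had at most 89.7. Ddx3y, a gene of the Y chromosome, was at most 6.34 in WT and at least 2682 in cKO libraries, so genotype and sex-linked transcripts cannot be told apart, and cKO FO library 1 held both. In cKO MZ library 1 the granulocyte list summed to 1849 normalized counts and the erythroid list to 10149, against at most 82.8 and 747 in the FO libraries. Results are given below with and without those libraries where they differ.

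Inducible subunits were expressed at a high level in all 8 libraries, as the plot of levels per length shows. Psme1 had the highest mean per kilobase of its principal transcript among the 41 genes, at 3645 normalized counts per kb. Psmb8 was second at 2979, Psmb9 the fifth at 2502, Psme2 seventh at 2103 and Psmb10 twelfth at 1769. Counted over all annotated exons, the same 5 genes ranked 1, 4, 14, 9 and 5. The choice of length thus changed the order, while Psme1 led and the base assembly factor Psmd9 came last on both scales.

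**Figure D1:**
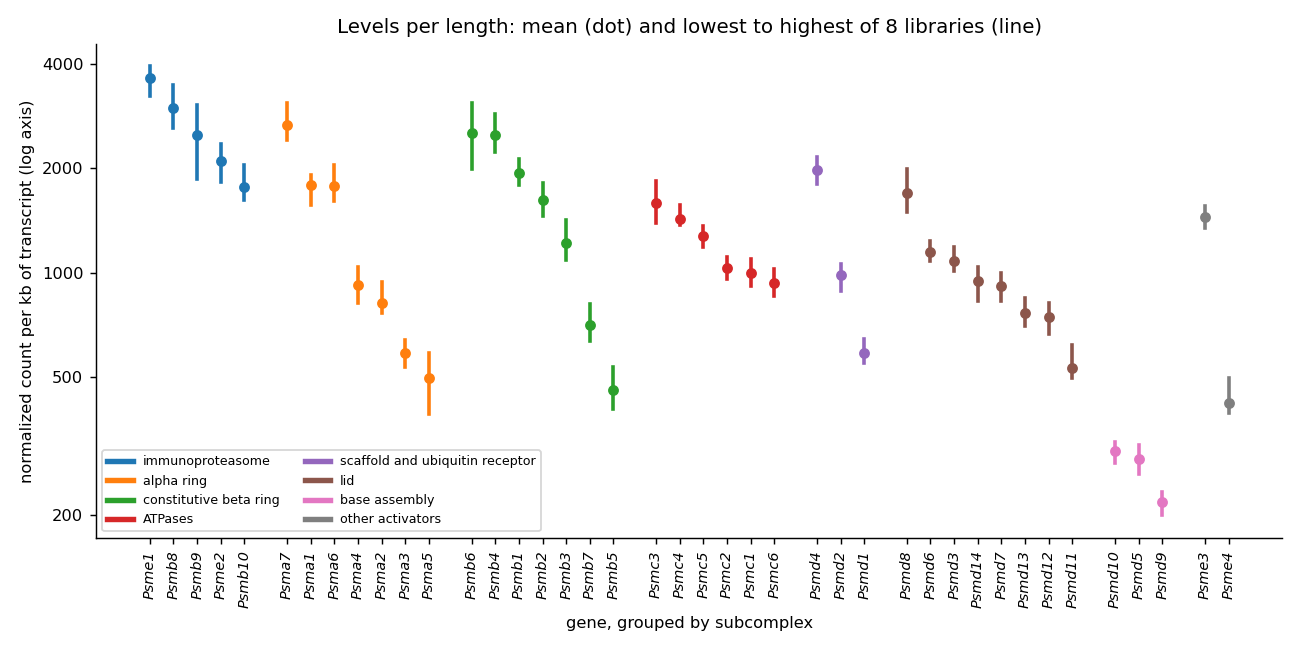
Level of each proteasome subunit gene in normalized counts per kb of principal transcript (log axis), grouped by subcomplex. Dots are means and lines run from the lowest to the highest of the 8 libraries. Means run from 3645 for Psme1 down to 219 for Psmd9.

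Among the constitutive genes, levels per kb of principal transcript were uneven within a subcomplex. In the alpha ring, the outer gate of the barrel, Psma7 had 2673 normalized counts per kb and Psma5 499. In the constitutive beta ring Psmb6 had 2524 and Psmb5 460. These extremes depended on the length used. Counted over all annotated exons, the alpha ring ran from 1501 for Psma6 to 430 for Psma3. The constitutive beta ring then ran from 1515 for Psmb4 to 240 for Psmb7. Per kb of principal transcript the 6 ATPases, which unfold the substrate, were the most even subcomplex of more than 3 genes, from 1595 for Psmc3 to 935 for Psmc6. Over all annotated exons they ran from 1208 for Psmc5 to 367 for Psmc2. The lid, whose Psmd14 removes ubiquitin chains, ran from 1695 for Psmd8 to 532 for Psmd11 per kb of principal transcript. The scaffold and receptor group ran from 1981 for Psmd4, a ubiquitin receptor, to 587 for the scaffold Psmd1. Lowest on this scale were Psmd10, Psmd5 and Psmd9, chaperones of base assembly that leave the finished particle, with a highest value of 306. Over all annotated exons Psmd5 and Psmd9 were still the last, while Psmd10 ranked 36. Of the other activators, Psme3, which forms a nuclear activator ring, had 1451 and Psme4, a large single-chain activator, 421.

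Psmb8 (ENSMUSG00000024338.15, chromosome 17 from 34197721 to 34201454, plus strand, GRCm38) encodes the inducible counterpart of Psmb5. In normalized counts it had FO libraries at 4522 and 5278 (WT) and 4268 and 5659.7 (cKO) and MZ libraries at 4419.8 and 5114 (WT) and 4952 and 4588 (cKO). The lowest and the highest library were both cKO FO, and the groups overlapped. FO minus MZ was 0.04 ± 0.098 on the log2 scale (SE; limma adjusted p = 0.768), a direction that turned to -0.08 under quantile normalization and -0.03 with reads scaled to the library total. Psmb5 (chromosome 14 from 54614119 to 54618022, minus strand), the constitutive chymotrypsin-like subunit, had FO libraries at 385 and 454 (WT) and 396 and 480.1 (cKO) and MZ libraries at 385 and 437 (WT) and 408 and 364 (cKO). Per kb of principal transcript, Psmb8 was between 5.95 and 6.96 times as high as Psmb5 in every library, and between 2.86 and 3.35 times over all annotated exons.

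Psmb9 (ENSMUSG00000096727.3, chromosome 17 from 34181987 to 34187764, minus strand) encodes the counterpart of Psmb6. It had FO libraries at 2675 and 3475 (WT) and 2518 and 3748 (cKO) and MZ libraries at 3275 and 4117 (WT) and 3792 and 3464 (cKO). The highest FO library lay above the 2 lowest MZ libraries. The mean was 3104 ± 600 (SD, n = 4) in FO and 3662 ± 371 in MZ, and FO minus MZ was -0.25 ± 0.138 (SE; limma adjusted p = 0.182, 95% interval -0.57 to 0.06). Under the alternatives that adjusted p ran from 0.0541 to 0.445. Psmb6 (chromosome 11 from 70525367 to 70527858, plus strand) leaned the other way, with FO libraries at 2262 and 1925 (WT) and 2008 and 2459 (cKO) and MZ libraries at 1983 and 1586 (WT) and 2023 and 1868 (cKO). Its FO minus MZ difference was 0.21 ± 0.098 (limma adjusted p = 0.117). The ratio of Psmb9 to Psmb6 had the widest range of the 3 pairs, between 0.698 and 1.53 per kb of principal transcript.

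Psmb10 (ENSMUSG00000031897.9, chromosome 8 from 105935735 to 105938444, minus strand) encodes the counterpart of Psmb7. It had FO libraries at 2232 and 2507 (WT) and 2189 and 2690.5 (cKO) and MZ libraries at 2133 and 2256 (WT) and 2275 and 2269.6 (cKO). FO minus MZ was 0.10 ± 0.075 (SE; limma adjusted p = 0.317). Psmb7 (chromosome 2 from 38588036 to 38644087, minus strand) had FO libraries at 800.4 and 846 (WT) and 842 and 944 (cKO) and MZ libraries at 789 and 739 (WT) and 854 and 749 (cKO). The ratio of Psmb10 to Psmb7 per kb was between 2.30 and 2.70 with principal transcripts and between 5.22 and 6.13 with all annotated exons, so all libraries lay above 1 on both scales.

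The 3 ratios were each tested between subsets and genotypes with a two-sided exact permutation test of 4 against 4 libraries, which can give no p below 0.0286. The log2 ratio of Psmb9 to Psmb6, here without length, was 0.51 ± 0.28 (SD) in FO and 0.97 ± 0.28 in MZ libraries, a difference of -0.47 (exact p = 0.0571, adjusted p over 6 tests = 0.343). The libraries overlapped between the subsets. For Psmb8 to Psmb5 the difference FO minus MZ was -0.06 (exact p = 0.257) and for Psmb10 to Psmb7 it was -0.03 (exact p = 0.686). Between cKO and WT the 3 differences were 0.02, -0.12 and -0.05, with exact p between 0.486 and 0.743. None of the 6 passed.

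Psme1 (ENSMUSG00000022216.17, chromosome 14 from 55578123 to 55581529, plus strand) and Psme2 (ENSMUSG00000079197.10, chromosome 14 from 55587441 to 55591113, minus strand) encode the inducible activator. Psme1 had FO libraries at 3606 and 4135 (WT) and 3899 and 4378 (cKO) and MZ libraries at 3888 and 4184 (WT) and 4218 and 4118 (cKO). Psme2 had FO libraries at 1763 and 1989 (WT) and 1834 and 2135 (cKO) and MZ libraries at 1920.5 and 2260.5 (WT) and 2221 and 2064 (cKO). Both genes overlapped between the subsets. FO minus MZ was -0.04 ± 0.066 for Psme1 (SE; limma adjusted p = 0.685) and -0.13 ± 0.079 for Psme2 (limma adjusted p = 0.219). Psme2 has a near-identical copy, Psme2b on chromosome 11, with a mean of 1182 normalized counts, so reads of the pair may be split between them.

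Of the activators that are not inducible, Psme3 (chromosome 11 from 101316213 to 101323537) had FO libraries at 3720.3 and 3669 (WT) and 3932 and 3578 (cKO) and MZ libraries at 4139.5 and 3936 (WT) and 3816 and 4125 (cKO). Psme4 (chromosome 11 from 30771726 to 30880361) had FO libraries at 2647 and 3236 (WT) and 2716 and 2793 (cKO) and MZ libraries at 2594 and 2743 (WT) and 2553 and 2583 (cKO). Both overlapped between FO and MZ libraries. The FO minus MZ differences were -0.10 ± 0.055 (SE; limma adjusted p = 0.173) and 0.12 ± 0.068 (limma adjusted p = 0.210). Psme3 passed the adjusted p under quantile normalization, at -0.22 (limma adjusted p = 0.00712), and with reads scaled to the library total, at -0.17 (limma adjusted p = 0.0228), both under 1.5-fold.

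**Figure D2:**
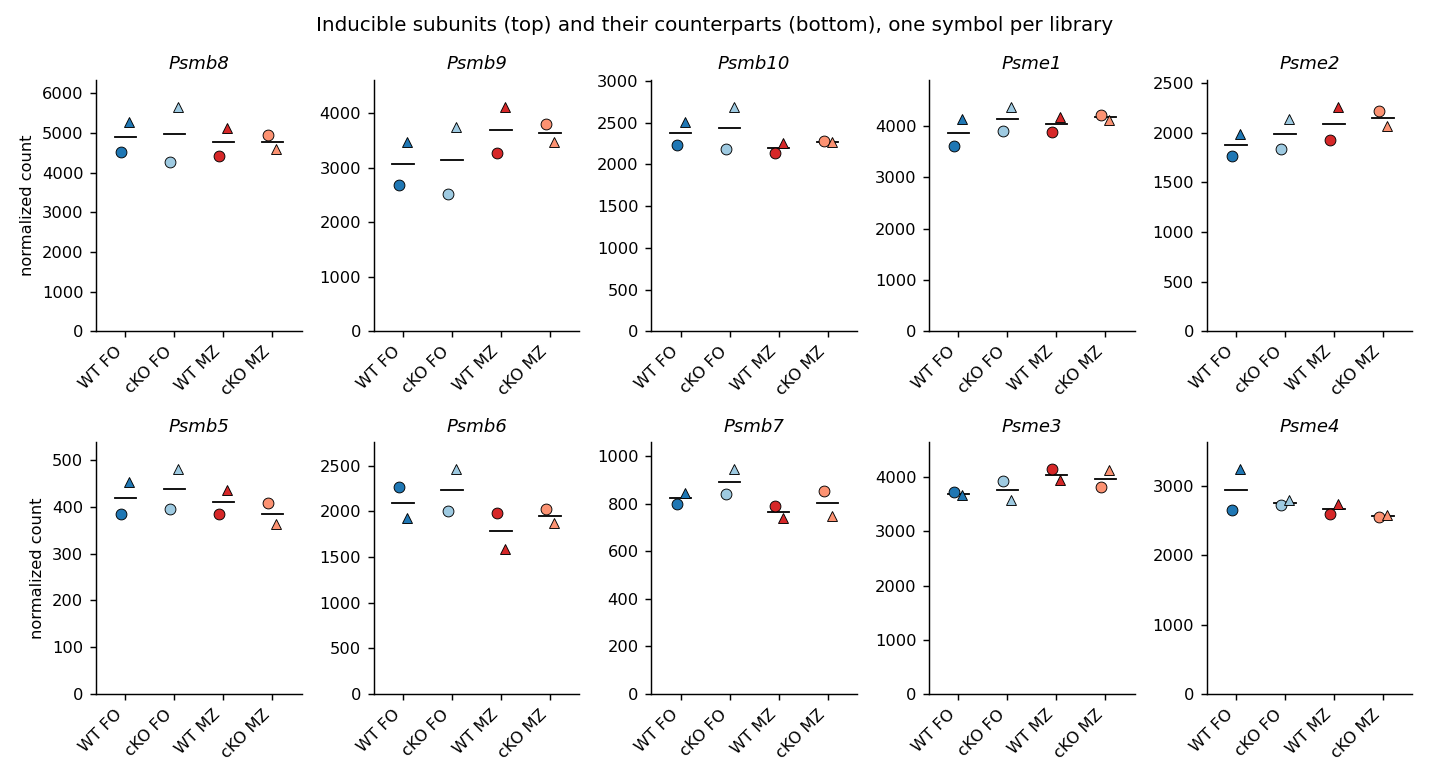
Normalized counts of the 5 inducible subunits (top row) and of Psmb5, Psmb6, Psmb7, Psme3 and Psme4 (bottom row), with a linear axis from 0 in each panel. Each symbol is 1 library (circles, library 1; triangles, library 2) and each bar is the mean of the 2 libraries of a group. The FO and MZ libraries of every gene shown overlap.

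Promoter sequence is shown for a few of these genes because inducible subunits are known targets of interferon factors and constitutive ones of Nfe2l1. RefSeq windows of GRCm38.p6 from 250 bases before to 50 bases after the start site were found for 35 of the 41 genes and searched on both strands. The motifs were an interferon-stimulated element (GAAA, any 2 bases, then GAAA), a gamma-activated type of site (TTCNNNGAA), an antioxidant-type element (TGACNNNGC) and a GC box (GGGCGG). Capitals mark the match, with 8 bases to either side, each read on the strand of its gene. The lines give Psmb8 at chr17:34198090-34198114 (plus strand, gamma-activated type), Psmb9 at chr17:34187372-34187393 (minus strand, GC box), Psme1 at chr14:55578495-55578520 (plus strand, interferon type), Psmb5 at chr14:54618026-54618050 (minus strand, antioxidant type) and Psmb6 at chr11:70525340-70525364 (plus strand, antioxidant type).
Psmb8: ctccgctgTTCCCAGAAgatgcccc
Psmb9: cgatgatgGGGCGGggcctcag
Psme1: agctgtgcTTTCGCTTTCccttcccg
Psmb5: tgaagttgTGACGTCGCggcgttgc
Psmb6: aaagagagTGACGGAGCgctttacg
The interferon type was found in 4 of the 35 genes (Psmb3, Psmd4, Psmd9 and Psme1) and in 3.99% of 27025 genes with a window. The gamma-activated type was found in 2, Psmb8 and Psmd2, and in 9.55% of all genes. The antioxidant type was found in 6 genes and in 14.0% of all, and the GC box in 22 genes and in 38.2% of all. A match is a stretch of letters in this window and not a measured site.

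Psmb9 and Tap1, which encodes a subunit of the peptide transporter, point away from each other, and their RefSeq start sites on chromosome 17 are 226 bases apart, so that the GC box above lies in both windows. Tap1 had FO libraries at 8972 and 11589 (WT) and 8300.1 and 11111 (cKO) and MZ libraries at 9288 and 11591 (WT) and 9024 and 9394 (cKO). Like Psmb9, it was higher in library 2 than in library 1 of both WT groups and of cKO FO, while in cKO MZ library 2 had more Tap1 and less Psmb9 than library 1. FO minus MZ was 0.02 ± 0.119 for Tap1 (SE; limma adjusted p = 0.922). The annotated exons of the 2 genes overlap by 212 bases on opposite strands, and whether the counting used strand is not given in the sources used here.

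Between FO and MZ B cells none of the 41 genes was called, with both an adjusted p no higher than 0.05 and a change of 1.5-fold or more, in a comparison that called 19.5% of the 14761 genes tested. This count of 0 was by limma, and DESeq2 and edgeR on the recovered reads also called 0. An unadjusted p under 0.05 by limma was found for 4 of the 41 genes and for 6990 of the 14761. Among the 7485 genes with a mean at least that of Psmb5, 13.0% were called. The 41 differences FO minus MZ lay between -0.25 for Psmb9 and 0.28 for Psmd8, with a median of 0.02 against 0.00 over all genes tested. The median turned to -0.02 under quantile normalization and to -0.05 with reads scaled to the library total. The 95% interval of the difference was within 1.5-fold either way for all 41 genes, for 46.2% of all genes tested and for 73.0% of those with a mean at least that of Psmb5.

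At an adjusted p of at most 0.05 with no fold limit, 4 of the 41 genes passed (9.76%), where 37.9% of all genes tested and 43.8% of those with a mean at least that of Psmb5 did. Psmd8, a lid subunit, was higher in FO, with FO libraries at 2809 and 2655 (WT) and 2931 and 3076 (cKO) and MZ libraries at 2383 and 2373 (WT) and 2305 and 2352 (cKO). All FO libraries were above all MZ libraries, and the difference was 0.28 ± 0.056 (SE; limma adjusted p = 0.00419). Psmc3, an ATPase of the base, was higher in FO by 0.24 ± 0.062 (limma adjusted p = 0.0142), with FO libraries at 2804 and 2849 (WT) and 2641 and 3016 (cKO) and MZ libraries at 2353 and 2387 (WT) and 2543 and 2276 (cKO). Exons of Psmc3 overlap those of Slc39a13 on the other strand by 215 bases.

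The other 2 were lid genes that were lower in FO. Psmd14, the deubiquitinase of the lid, had FO libraries at 1318 and 1439 (WT) and 1275 and 1384 (cKO) and MZ libraries at 1508 and 1599 (WT) and 1567 and 1567 (cKO) (-0.21 ± 0.059, SE; limma adjusted p = 0.0241). Psmd12 had FO libraries at 1271 and 1444 (WT) and 1307 and 1307 (cKO) and MZ libraries at 1560.3 and 1463 (WT) and 1554 and 1477 (cKO) (-0.18 ± 0.062, SE; limma adjusted p = 0.0431). Neither passed without a filter on low values, or when WT FO library 1, WT MZ library 2, cKO FO library 1, cKO MZ library 1 or cKO MZ library 2 was left out, and Psmd12 was also lost without WT MZ library 1 or cKO FO library 2. Psmc3 was lost without cKO MZ library 2, under quantile normalization and with reads scaled to the library total. Psmd8 passed under all of these settings. Psmd8 and Psmd14 thus differed in opposite directions within 1 subcomplex.

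**Figure D3:**
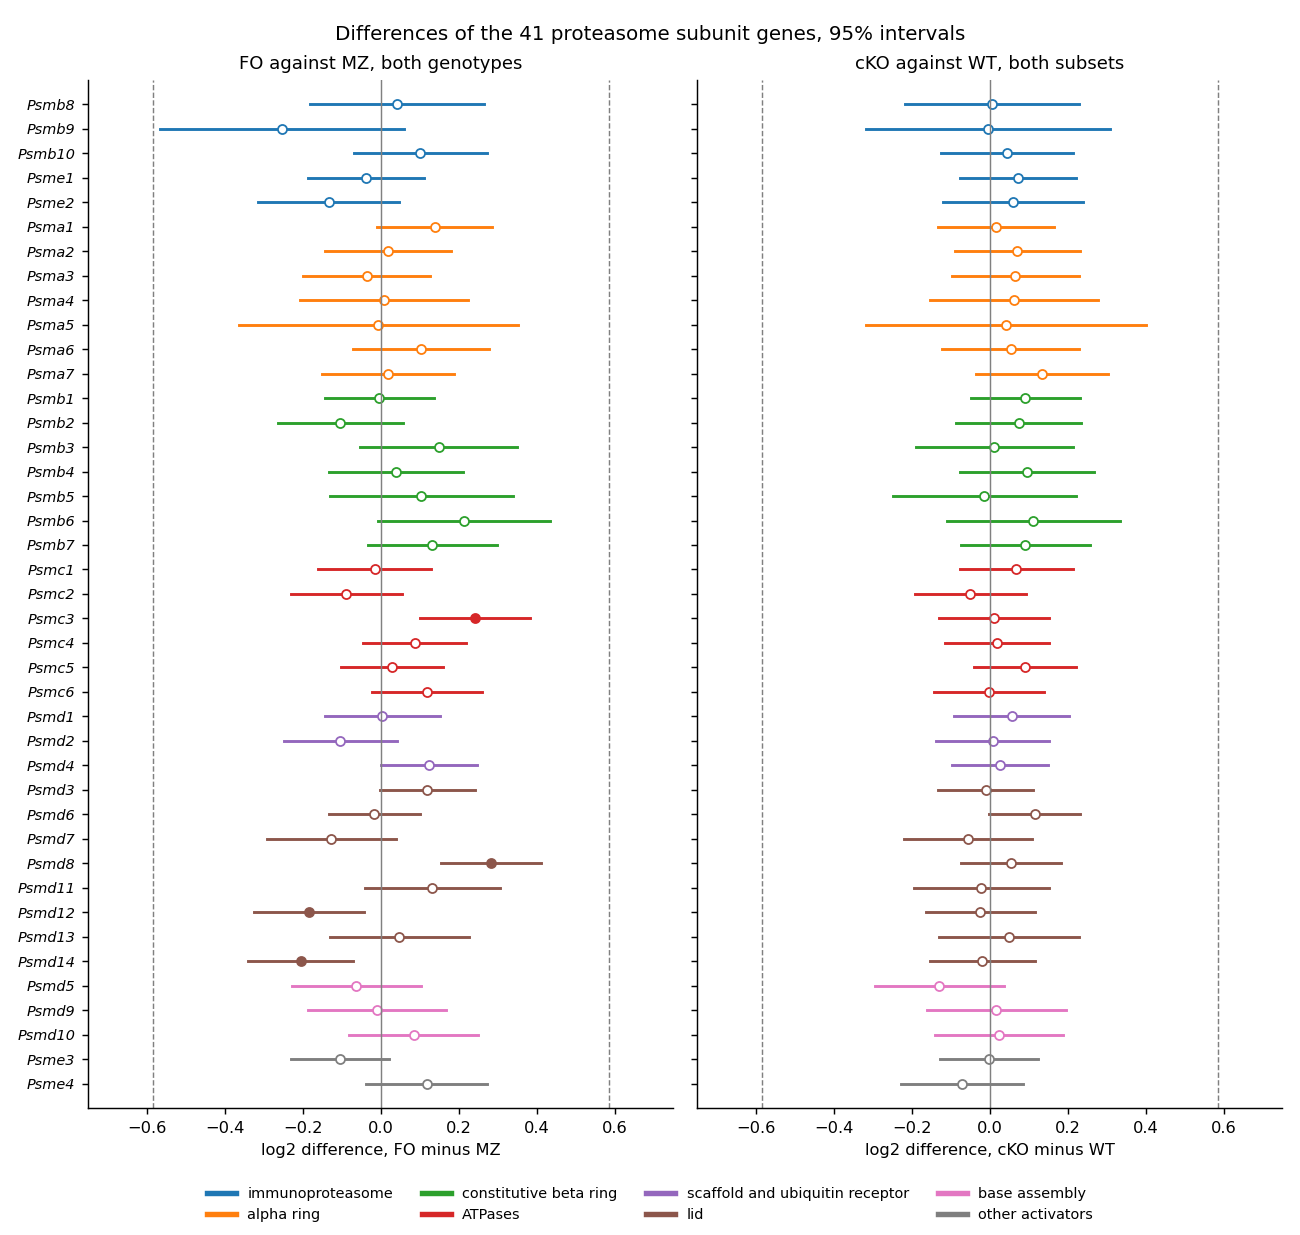
Log2 differences of the 41 genes by limma, FO minus MZ (left) and cKO minus WT (right), with 95% intervals and colours for the subcomplex. Filled circles passed an adjusted p of at most 0.05, the solid line is 0 and the dashed lines mark 1.5-fold. The 4 filled circles are Psmc3, Psmd8, Psmd12 and Psmd14 on the left, and all intervals lie inside the dashed lines.

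The FO and MZ libraries did not overlap for 7 of the 41 genes (17.1%), where 36.5% of all genes tested and 41.6% of those with a mean at least that of Psmb5 did not. Psma1, Psmc3, Psmd3, Psmd4 and Psmd8 were higher in all FO libraries, and Psmd12 and Psmd14 lower. None of the 5 inducible genes was among them. Of the inducible genes 2 were above 0 and 3 below, with a median difference of -0.04, and of the 36 others 22 were above and 14 below, with a median of 0.02. No test compared these groups, since their members were chosen with earlier values known.

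Within each genotype the picture had wider intervals. In WT mice 0 of the 41 genes was called by limma, where 12.0% of all genes tested were. An unadjusted p under 0.05 was found for 2 of the 41 and for 4469 of the 14761 genes tested. In cKO mice 0 was called, where 13.7% of all genes were. Here 3 of the 41 and 4933 of all genes tested had an unadjusted p under 0.05. Psmd8 alone passed the adjusted p without a fold limit in cKO mice, at 0.37 ± 0.078 (SE; limma adjusted p = 0.0152), where 19.6% of all genes passed, and it lost that when any 1 of the 4 cKO libraries was left out. In WT mice its difference was 0.20 (limma adjusted p = 0.128). The interaction of genotype and subset for Psmd8 was -0.17, with a limma adjusted p that rounds to 1.00, so the 2 values were not shown to differ.

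Between cKO and WT B cells none of the 41 genes was called by limma across both subsets, where 0.149% of all genes tested were called. An unadjusted p under 0.05 was found for 0 of the 41 and for 1230 of the 14761 genes tested. DESeq2 and edgeR also called 0. The differences cKO minus WT lay between -0.13 for Psmd5 and 0.13 for Psma7, with a median of 0.03 against -0.01 over all genes. All 41 intervals were within 1.5-fold, as were those of 64.3% of all genes tested and 93.6% of those with a mean at least that of Psmb5. The inducible genes lay between -0.00396 for Psmb9 and 0.07 for Psme1. The sign for Psmb8, Psmb9 and Psmb10 changed with the scaling or with a library left out, so no direction is given for them.

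In FO B cells alone 0 of the 41 genes was called by limma, where 0.0677% of all genes were called, and in MZ B cells alone 0, where 0.0339% were. None of the 41 had an unadjusted p under 0.05 in either subset, where 382 (FO) and 596 (MZ) of the 14761 genes tested did. Psmd6, a lid gene, was the only member whose 4 cKO libraries, between 1621 and 1716 normalized counts, lay above its 4 WT libraries, between 1496.5 and 1559. Its difference was 0.11 ± 0.051 (SE; limma adjusted p = 0.608), and 1 of 41 genes is 2.44%, where 2.09% of all genes did not overlap. Without cKO FO library 1, whose sex-linked transcripts were mixed, the difference of the 41 genes that was largest in size was 0.20 (Psma7), and without cKO MZ library 1 it was -0.17 (Psmd5), with 0 called both times. The interaction of genotype and subset called 0 of the 41 genes and 0 of all genes tested, and 0 and 94 had an unadjusted p under 0.05.

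The inducible genes also differed between the 2 libraries of a group, as the plot of library differences shows. All 5 were higher in library 2 than in library 1 of WT FO, of WT MZ and of cKO FO, with medians of 0.20, 0.21 and 0.30 on the log2 scale. In cKO MZ all 5 were lower in library 2, with a median of -0.11. The labels do not say what a library number marks. Over all genes tested, the differences between library 2 and library 1 correlated at 0.59 between WT FO and WT MZ. Between cKO FO and cKO MZ they correlated at -0.0015. The shared order in the 2 WT groups may thus not be 2 separate observations. Of the inducible genes Psmb9 differed most, by 0.57 between the cKO FO libraries, 0.38 between the WT FO and 0.33 between the WT MZ libraries. Its FO minus MZ difference of -0.25 is between means of 4 libraries, so its size is not a like measure to a gap between 2 single libraries. The lowest and highest Psmb9 libraries were in different groups, cKO FO library 1 at 2518 and WT MZ library 2 at 4117.

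**Figure D4:**
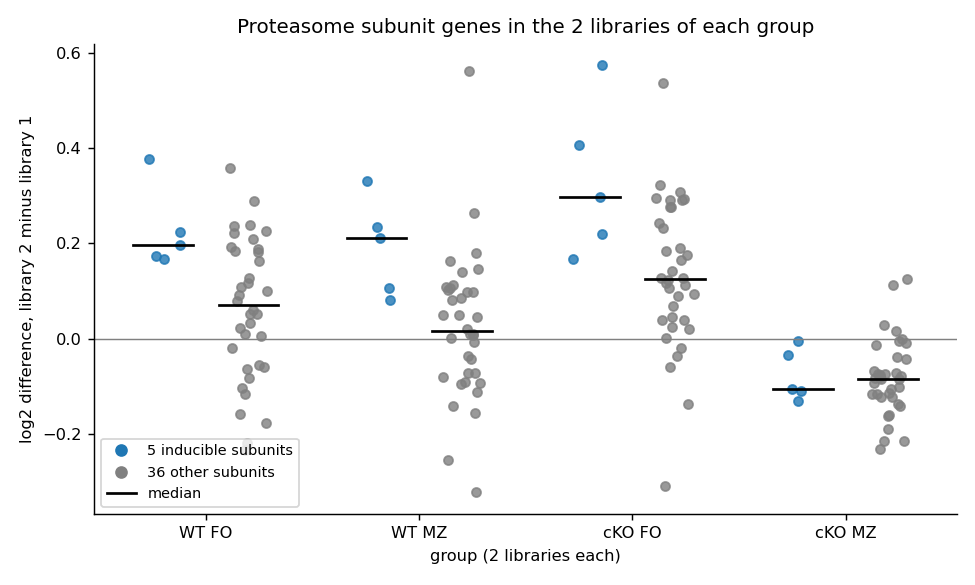
Log2 difference between library 2 and library 1 of each group for the 5 inducible subunits (blue) and the 36 other subunits (grey), with black bars for medians. The 5 inducible genes lie above 0 in WT FO, WT MZ and cKO FO and below 0 in cKO MZ, with medians of 0.20, 0.21, 0.30 and -0.11.

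Of the other 36 genes, the number higher in library 2 was 25 for WT FO, 22 for WT MZ, 31 for cKO FO and 5 for cKO MZ, with medians of 0.07, 0.02, 0.12 and -0.08, and no test compared them with the 5. Of the 14761 genes tested, 7803, 7561, 7513 and 7741 were higher in library 2 of those groups. The summed macrophage and monocyte markers (6 genes) were higher in library 2 of WT FO (661 and 1218 normalized counts) and WT MZ (701 and 1642) and lower in library 2 of cKO FO (981 and 607) and cKO MZ (1649 and 1042). The summed NK cell markers (4 genes) went from 107 to 259, from 57.8 to 213, from 96.3 to 43.3 and from 179 to 47.4 in the same order. Within the macrophage list Cd68 ran against the sum in WT FO (221 and 173), WT MZ (378 and 283) and cKO MZ (336 and 384). The plasma cell list (4 genes) had 3867 and 3958, 3874 and 6861, 4631 and 2855, and 4519 and 3043 in the same order. Xbp1 on that list was lower in library 2 of every group. The macrophage, NK and plasma cell sums thus went with the inducible genes in 3 groups and against them in cKO FO. The erythroid sum (4 genes) went with the inducible genes in every group. It had 18.0 and 127, 61.6 and 189, 40.3 and 747, and 10149 and 456 in the same order. The T and dendritic cell sums also went with the inducible genes in every group, and the granulocyte sum against them in both WT groups. Within the dendritic list, Flt3 was lower in library 2 of WT FO (110 and 96.1) and WT MZ (150 and 114). Xcr1 and Zbtb46 were lower there too, while Itgax and Siglech were higher. Within the T cell list, Cd3d, Cd3g and Cd8a were lower in library 2 of cKO FO, while Cd3e, Cd4 and Trac were higher. The part of these lists in the result was not tested. The pooled SD within groups had a median of 0.100 for the 41 genes, 0.134 for the inducible 5 and 0.0949 for the other 36, beside 0.186 for all genes tested and 0.115 for those with a mean at least that of Psmb5. Psma5, an alpha ring gene, had the largest at 0.303, followed by Psmb9 at 0.273 and Psmb8 at 0.184. Psma5 had FO libraries at 543 and 696 (WT) and 503 and 729.7 (cKO) and MZ libraries at 486 and 718 (WT) and 645 and 626 (cKO). Together the 41 genes took between 0.329% and 0.383% of the reads on genes in a library, and the inducible 5 took between 18.4% and 21.8% of those.

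Several genes around the proteasome differed between the subsets by more than any subunit did. Nlrc5, the transactivator of MHC class I genes, had FO libraries at 4096 and 5384 (WT) and 4351 and 5273 (cKO) and MZ libraries at 6709 and 7800.2 (WT) and 6387 and 6367 (cKO). All FO libraries were below all MZ libraries, where 36.5% of all genes tested did not overlap in either direction. FO minus MZ was -0.52 ± 0.106 (SE; limma adjusted p = 0.00474), under 1.5-fold in both genotypes together and past it in WT at -0.62 (limma adjusted p = 0.0294).

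Irf1, an interferon-induced activator, went the other way, with FO libraries at 5325 and 5087 (WT) and 6239 and 6555 (cKO) and MZ libraries at 3512 and 4112 (WT) and 3599 and 3865 (cKO). It was called higher in FO, at 0.62 ± 0.084 (SE; limma adjusted p = 0.000528). Of these genes Irf1 alone was called across both genotypes, where 19.5% of all genes were.

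Of 6 assembly genes, Paaf1, a chaperone of the ATPases, was not analysed here. The 5 others, which help to build the barrel, were all below 0 in FO minus MZ, as were 7309 of the 14761 genes tested, with a median of -0.12. The chaperones Psmg1 and Psmg2, which pair in the first step of alpha ring assembly, passed the adjusted p (40.0% of the 5, where 37.9% of all genes passed). Psmg2 had FO libraries at 549 and 602 (WT) and 512 and 609.96 (cKO) and MZ libraries at 767 and 758 (WT) and 805 and 772 (cKO). The FO and MZ libraries of Psmg2 did not overlap, and the difference was -0.45 ± 0.078 (SE; limma adjusted p = 0.00195). Psmg1 was lower by -0.42 ± 0.089 (limma adjusted p = 0.00583), with FO libraries between 264 and 272 and MZ libraries between 319 and 403. Neither reached 1.5-fold.

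**Figure D5:**
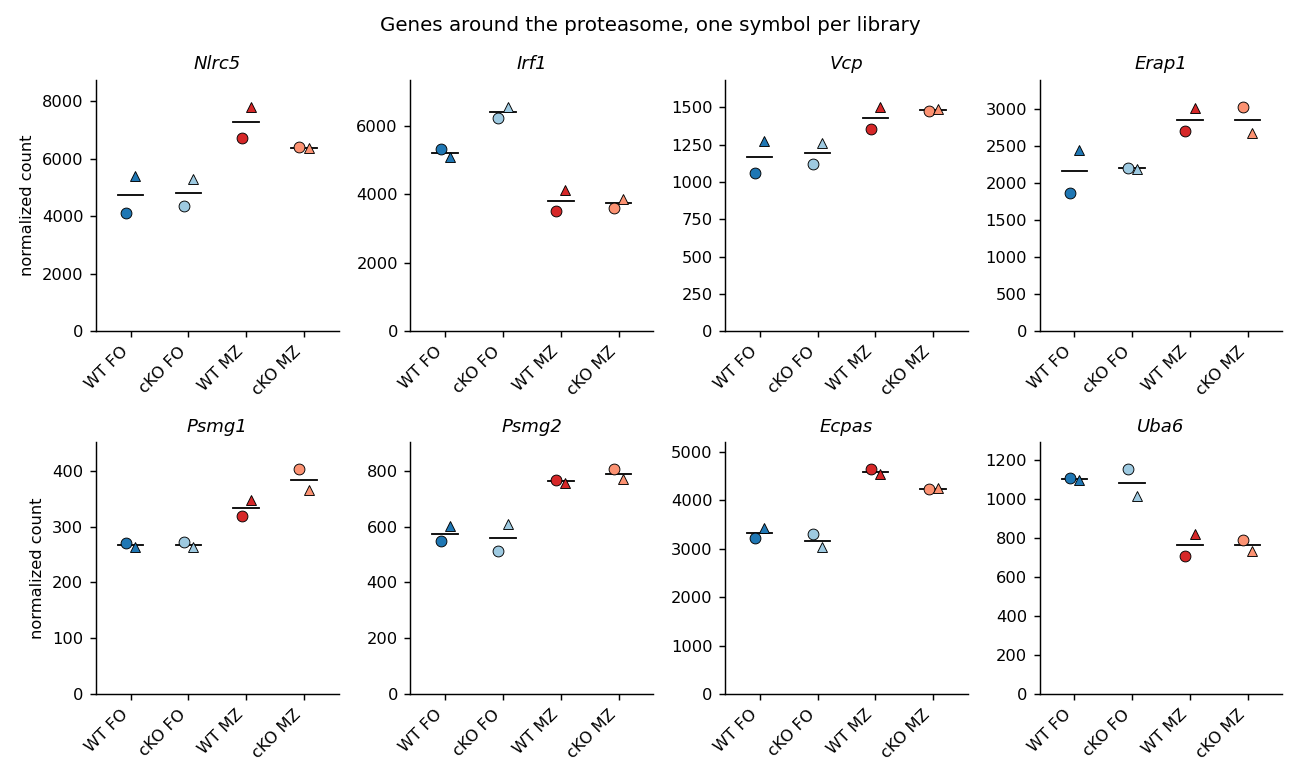
Normalized counts of 8 genes around the proteasome, with a linear axis from 0 in each panel. Each symbol is 1 library (circles, library 1; triangles, library 2) and each bar is a group mean. FO and MZ libraries are apart for Nlrc5, Irf1, Vcp, Erap1, Psmg1, Psmg2, Ecpas and Uba6, which were chosen from the lists with their values known. The FO and MZ libraries of 36.5% of all genes tested are apart.

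Of 19 regulators and associated genes, 0 were called, 4 were higher and 3 lower in FO by the adjusted p alone (36.8%, where 37.9% of all genes passed). Ecpas, a proteasome adaptor and scaffold, was lower in FO, with FO libraries at 3214 and 3433 (WT) and 3299 and 3027 (cKO) and MZ libraries at 4636 and 4542 (WT) and 4230 and 4247 (cKO) (-0.44 ± 0.052, SE; limma adjusted p = 0.000233). The AAA ATPase Vcp was lower by -0.31 (limma adjusted p = 0.0135). The ubiquitin shuttle Rad23b was lower by -0.24 (limma adjusted p = 0.0170). Nfe2l1, the factor that drives subunit genes when the proteasome is inhibited, was higher by 0.22 (limma adjusted p = 0.0390).

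Of 11 genes of MHC class I peptide supply, 0 were called, where 19.5% of all genes were, and 1 was higher and 2 lower in FO by the adjusted p alone (27.3%, where 37.9% of all genes passed). Calr, a chaperone of the loading complex, was higher by 0.28 (limma adjusted p = 0.0313), and Erap1, the peptidase that trims peptides, was lower by -0.39 (limma adjusted p = 0.00839). Pdia3 was lower by -0.22 (limma adjusted p = 0.0346). B2m, the light chain, differed by -0.01 (limma adjusted p = 0.963). Of 6 genes of ubiquitin and its activation, 0 were called and 2 passed the adjusted p alone (33.3%). Uba6, an activating enzyme, was higher in FO by 0.52 ± 0.074 (SE; limma adjusted p = 0.000677) and the ubiquitin fusion Rps27a lower by -0.31 (limma adjusted p = 0.00838). Uba6 had FO libraries between 1015 and 1151 and MZ libraries between 708 and 819.6. Between cKO and WT across both subsets, 0 of the genes on these 5 lists passed the adjusted p by limma, where 0.196% of all genes did. An unadjusted p under 0.05 was found for 2 of the list genes and for 1230 of the 14761 genes tested.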

How the data were processed

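RNA was sequenced from sorted FO and MZ B cells, with 2 libraries in each of 4 groups. The authors depleted ribosomal RNA, made single-end reads of 50 bases, aligned them with HISAT2 to mm10, counted them with featureCounts and htseq-count and used DESeq2. Versions are not given in the sources used here. The deposited signal is normalized counts, reads divided by a size factor per library. All values (100%) gave back whole reads within a tolerance of 0.01, from 21546552 to 25083552 per library.

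The table held 27928 genes after 256343 blank lines were left out, and 27872 identifiers were in GENCODE M21 (GRCm38), which gave coordinates and lengths. After a pseudocount of 1 and a log2 transform, limma 3.58.1 in R 4.3.3 (eBayes with trend) was run in 1 fit of all 8 libraries over 14761 genes whose mean was at least 10. A call needed 1.5-fold or more and a p of 0.05 or less after Benjamini-Hochberg adjustment over all tested genes. For low genes the pseudocount makes log2 differences smaller. Ratios of 2 genes were tested by exact permutation in scipy 1.17.1. The scripts were tested on simulated data.

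The members and lists were chosen with earlier results of these data known. Any of the 41 genes could be named. Every library was given for the inducible genes, for Psmb5, Psmb6, Psmb7, Psme3 and Psme4, and for members past the adjusted p, and in each list examples were chosen by call and then by size. Psma5, Psmd6, Tap1 and further list genes were named after their values were seen. Alternatives changed the scaling (quantile, TMM, library total), the pseudocount (0.5), the filter (none), the fold limit (none, 2-fold) or the tool (DESeq2 1.42.0 and edgeR 4.0.16 on recovered reads), added a replicate block, used only the 4 or 8 libraries of a comparison, or left out each library in turn. The 8 ATAC-seq samples were not analysed here. A few further genes of the lists are not reported here.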

Additional observations from a re-analysis of the deposited data

Results flagged for a closer look

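The log2 ratio of Psmb8 to Psmb5 was 3.43 in cKO FO library 1, lower than in the other 3 FO libraries by more than their spread (Dixon's test among the 4 FO libraries). Psmb10 had 2133 normalized counts in WT MZ library 1, lower than the other 3 MZ libraries by the same test. These were 2 of 68 such tests, of which chance flags about 1 in 20.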

How the results depend on the processing

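No member was called in any of the 6 comparisons under any alternative that kept the fold limit. Without it, 2 were higher and 2 lower in FO against MZ across both genotypes and 1 was higher in cKO mice. Of all genes tested, 37.9% and 19.6% passed in these 2 comparisons. Under quantile normalization without that limit 2 were higher (Psmd8 and Psmd10) and 4 lower (Psmd2, Psmd12, Psmd14 and Psme3), so Psmc3 was lost. Under that setting 5641 of the 14761 genes tested passed. With the library total as scale, 1 was higher (Psmd8) and 3 lower (Psmd12, Psmd14 and Psme3), where 5575 of all genes tested passed. All members were above the filter on low values, with a lowest mean of 414 normalized counts, and the effect of depth was not tested. The cause of each change below was not tested.

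The difference FO minus MZ turned for Psmb8 under quantile normalization (-0.0754) and with the library total as scale (-0.0289) and lay between -0.0401 and 0.123 with each library left out, and for Psme1 it lay between -0.0763 and 0.00673. The difference cKO minus WT lay between -0.0758 and 0.0870 for Psmb8, between -0.122 and 0.108 for Psmb9, between -0.0143 and 0.105 for Psmb10, between -0.0848 and 0.0366 for Psmb5 and between -0.0334 and 0.0256 for Psme3 with each library left out. Psmb9 turned to 0.0412 under quantile normalization, 0.00323 with TMM, 0.0163 with the library total, 0.00626 with DESeq2 and 0.0106 with edgeR. Psme3 turned to 0.0381, 0.00568, 0.0188, 0.00568 and 0.0101 under the same settings, and Psmb5 to 0.00577 with the library total. With each library left out, the log2 ratios lay between -0.0106 and 0.0649 for Psmb8 to Psmb5 in cKO minus WT, between -0.30 and 0.0769 for Psmb9 to Psmb6 in cKO minus WT and between -0.0642 and 0.00474 for Psmb10 to Psmb7 in FO minus MZ.

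The labels do not say that a replicate number marks a shared mouse, and deviations of same-numbered libraries correlated at 0.59 between WT FO and WT MZ, -0.0015 in cKO, 0.29 between WT and cKO FO and -0.30 between WT and cKO MZ. Xist was 14748 in cKO FO library 1 and 89.7 in cKO MZ library 1, so their RNA was not from the same animals alone. With the replicate number as a block no member was called, and Psmb6 passed the adjusted p without a fold limit at 0.21. A block with the numbers of cKO MZ exchanged, chosen after seeing the data and run for cKO against WT in MZ B cells only, also called 0.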
